A study of Saccharomyces cerevisiae with 12 samples.

Results

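The genes described here are the 58 Saccharomyces cerevisiae genes from RPL1A to RPL33B, which encode proteins of the large (60S) ribosomal subunit. They were chosen by name from the 7126 identifiers of the deposited gene table, and all 58 passed the filter on low counts. They form 25 pairs of paralogs, a copy A and a copy B, and 8 single genes (RPL3, RPL5, RPL10, RPL25, RPL28, RPL29, RPL30 and RPL32).

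All strains were MGD353-13D yeast grown in YPD, a rich medium, to mid log phase, and each of 6 genotypes had 2 libraries. WT is the wild type. Sdc1_KO lacks SDC1, the gene of a subunit of the Set1 complex, which methylates lysine 4 of histone H3. Dpy30_KO lacks the DPY30 motif of Sdc1, and Sdc1_mut carries a point mutation of Sdc1. Jhd2_KO lacks JHD2, the gene of the demethylase that removes this mark, and Sdc1_mut_Jhd2_KO carries both the point mutation and the JHD2 deletion. Nothing in the labels says whether the libraries of a strain came from separate cultures or clones, so p-values measure the spread between these libraries, which may be technical. The RNA was depleted of ribosomal RNA, and the libraries held 8652878 to 26041718 fragments. SDC1 had 0 fragments in both Sdc1_KO libraries and 162 to 648 in the others. JHD2 had 0 in the 4 libraries that lack it and 104 to 261 in the others. These counts are not scaled to library size. By the edgeR test described below, JHD2 was called higher than in WT in Sdc1_KO, Dpy30_KO and Sdc1_mut (log2 change 1.54, 1.46 and 1.35). SDC1 was called lower in Dpy30_KO (-0.79) and higher in Sdc1_mut (0.64) and Sdc1_mut_Jhd2_KO (0.87), and was not called in Jhd2_KO (-0.13). Dpy30_KO lacks the part of SDC1 that encodes the motif, and how much of the value there comes from this was not tested. A count of 0 allows up to 3 fragments.

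Ribosomal protein genes of budding yeast are transcribed at high rates from promoters bound by Rap1, Fhl1 and the coactivator Ifh1, and their output follows growth. Most of them were doubled in an ancient genome duplication, and the copies of a pair usually make the same or nearly the same protein. Dedicated chaperones bind several of the new proteins and escort them to the assembling subunit.

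Paralogs were alike where they code and unlike upstream. In RefSeq's R64 genome, coding identity between copies A and B ran from 78.9% (RPL22) to 99.4% (RPL1) with a median of 93.7% over 25 pairs, and 7 pairs encode identical proteins. Over the 300 bases from 400 to 101 before the start codon, identity was 49.0% to 58.3%. The coding starts of 2 pairs show how far short reads can tell copies apart. The first 90 coding bases differ at 2 bases in RPL1 (copy A on chromosome XVI, copy B on VII) and at 8 bases in RPL9 (VII and XIV), and capitals mark the bases that differ:
RPL1A: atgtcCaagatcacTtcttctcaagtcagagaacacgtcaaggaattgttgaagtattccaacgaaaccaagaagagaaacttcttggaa
RPL1B: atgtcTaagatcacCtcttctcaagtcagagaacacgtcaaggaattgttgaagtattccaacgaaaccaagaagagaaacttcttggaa
RPL9A: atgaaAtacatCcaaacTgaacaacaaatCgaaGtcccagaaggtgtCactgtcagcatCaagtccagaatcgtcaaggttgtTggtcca
RPL9B: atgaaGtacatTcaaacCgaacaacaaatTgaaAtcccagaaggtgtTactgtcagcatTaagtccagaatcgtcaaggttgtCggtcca

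Of all stretches of 50 coding bases, 81.0% in RPL1 occurred elsewhere in the genome too. The share was 72.7% in RPL4, 60.9% in RPL11, 56.9% in RPL7, 42.1% in RPL14, 28.4% in RPL2, 14.0% in RPL9 and 0% in RPL16 and RPL27. How reads with several matches were counted is not given in the sources used here, so the split between copies of RPL1, RPL4, RPL11, RPL7, RPL14 and RPL2 is uncertain.

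The regions upstream of RPL16 and RPL9 are shown because these pairs had the largest mean change of the A to B ratio over the 5 strains; in single strains some other pairs changed more than RPL9. They lie at chrIX:99517-99816 (RPL16A, minus strand), chrXIV:495102-495401 (RPL16B, minus strand), chrVII:228430-228729 (RPL9A, minus strand) and chrXIV:499281-499580 (RPL9B, plus strand) of R64. Each is given 5′ to 3′ toward its gene, and capitals mark the Fhl1 letters GACGCA on either strand:
RPL16A: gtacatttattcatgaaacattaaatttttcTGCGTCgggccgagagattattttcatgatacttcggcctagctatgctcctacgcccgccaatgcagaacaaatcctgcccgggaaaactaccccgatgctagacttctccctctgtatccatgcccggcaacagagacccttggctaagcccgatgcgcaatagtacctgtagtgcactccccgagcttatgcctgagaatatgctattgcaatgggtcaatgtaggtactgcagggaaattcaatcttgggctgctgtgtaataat
RPL16B: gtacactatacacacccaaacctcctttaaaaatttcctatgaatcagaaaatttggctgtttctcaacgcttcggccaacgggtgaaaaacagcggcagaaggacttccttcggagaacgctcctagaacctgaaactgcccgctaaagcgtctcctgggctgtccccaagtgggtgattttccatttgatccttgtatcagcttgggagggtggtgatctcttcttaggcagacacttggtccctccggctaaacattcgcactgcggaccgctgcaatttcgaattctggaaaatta
RPL9A: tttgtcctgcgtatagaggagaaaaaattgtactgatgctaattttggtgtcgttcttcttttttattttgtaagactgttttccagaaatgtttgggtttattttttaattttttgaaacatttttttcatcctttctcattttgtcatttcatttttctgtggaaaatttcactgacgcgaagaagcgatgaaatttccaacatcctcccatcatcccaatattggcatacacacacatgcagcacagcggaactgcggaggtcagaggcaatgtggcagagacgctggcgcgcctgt
RPL9B: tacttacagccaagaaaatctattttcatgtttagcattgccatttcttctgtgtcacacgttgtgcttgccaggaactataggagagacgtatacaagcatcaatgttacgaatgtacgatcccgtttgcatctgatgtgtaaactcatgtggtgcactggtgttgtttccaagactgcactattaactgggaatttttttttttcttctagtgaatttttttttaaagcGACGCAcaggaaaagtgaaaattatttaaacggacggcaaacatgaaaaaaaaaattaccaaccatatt

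RPL16A and RPL9B hold GACGCA once in these regions, and RPL16B and RPL9A do not. Over the 500 bases before the start codon, searched on both strands, GACGCA was found in 14 of 58 members (24.1%) and in 10.9% of the 6019 regions of all genes. The first Rap1 pattern searched was found in 10 members (17.2%) and in 2.21% of all regions, at 240 to 422 bases before the start codon. After that count was seen, 9 other Rap1 patterns were tried, and they matched 8.62% to 79.3% of members and 0.498% to 49.5% of all regions, so the share depends on the pattern. The Reb1 letters TTACCCG were found in 3 members (5.17%) and 10.1% of all regions, the Abf1 pattern in 5 (8.62%) and 18.1%, and the PAC letters GATGAG in 13 (22.4%) and 28.2%. A match is a description of letters, not a measured binding site.

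For 7 members the identifier next in number, with the opposite strand letter, also held many fragments and was not matched to a gene of R64. Over the 12 libraries RPL22A held 142 fragments and its neighbour YLR062C 76928. RPL33A held 1826 and YPL142C 84022, and RPL28 held 1974 and YGL102C 210485. The levels of these 3 genes are therefore no measure of their loci. Next to RPL10, RPL12A, RPL8B and RPL7B, the neighbour held 61.1%, 59.6%, 43.6% and 40.6% of the fragments of both. The strand setting of the counting is not given in the sources used here, and whether these identifiers overlap the members was not tested.

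**Figure D1:**
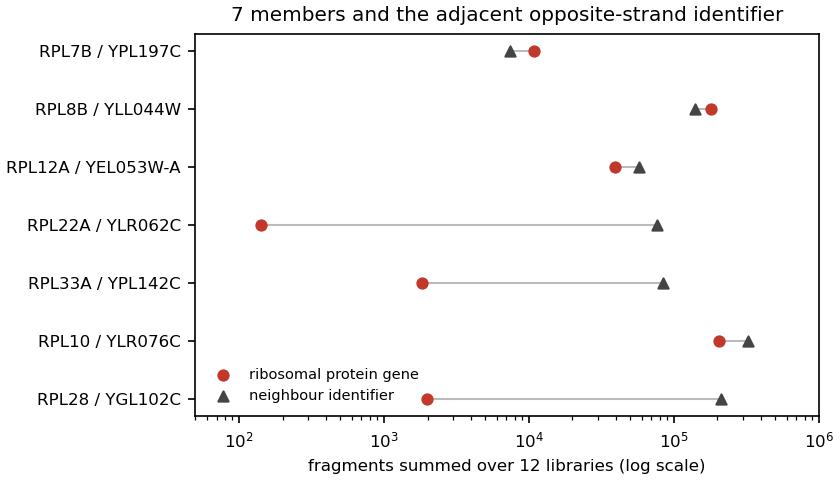
Fragments over the 12 libraries (log scale) of 7 members and of the identifier next to each. RPL22A, RPL33A and RPL28 hold 142, 1826 and 1974 fragments against 76928, 84022 and 210485 in their neighbours.

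Levels of different genes were compared per length, in the authors' FPKM (fragments scaled by gene length and library size). The median over the members was 1496 FPKM in WT. RPL29, a small protein that yeast can live without, had the highest FPKM at 14200, followed by RPL30 at 8916 and RPL15A at 6311. This order did not follow fragments per coding base. In fragments scaled to a common library size with TMM factors, but not by length, RPL29 was at 149 and 212 in WT, with 180 coding bases. RPL3 was at 5043 and 5122 with 1164 coding bases, but at 4772 FPKM. The order of genes of different length is therefore uncertain. RPL22A had the lowest at 3.01 FPKM, followed by RPL28 at 22.9 and RPL33A at 70.8, the 3 genes whose neighbours were largest relative to themselves. Copy A had the higher FPKM in all 12 libraries in 11 pairs and copy B in 9 pairs. These 9 include RPL12, RPL22 and RPL33, where the neighbour of copy A held more fragments than copy A itself, so the order of the copies is uncertain there. In RPL1, RPL16, RPL19, RPL20 and RPL21 the order of the copies differed between libraries.

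The members took a larger part of the RNA in the 3 strains with an altered SDC1 and an intact JHD2. They held 3.08% and 3.47% of all fragments in WT, 4.73% and 4.75% in Sdc1_KO, 4.67% and 4.77% in Dpy30_KO and 4.96% and 4.98% in Sdc1_mut. Jhd2_KO had 2.71% and 2.98%, and Sdc1_mut_Jhd2_KO had 3.69% and 3.89%. Both Jhd2_KO libraries lay below WT, and those of the combined strain lay between WT and the 3 SDC1 strains. These are relative levels: more RNA of the members and less RNA of other genes cannot be told apart. The replicates were also compared in fragments scaled to a common library size with TMM factors. The members were then on average 0.28 (log2) lower in WT replicate 1 than in replicate 2, and 0.24 lower in Sdc1_KO replicate 1. The unscaled shares of the Sdc1_KO libraries were nearly equal, and their TMM factors were 1.13 and 0.957. The Sdc1_KO difference therefore depends on the scaling. In the other strains the mean difference of replicate 1 minus replicate 2 was also below 0. It was -0.14 in Jhd2_KO, -0.07 in Sdc1_mut_Jhd2_KO, -0.05 in Dpy30_KO and -0.02 in Sdc1_mut. Mitochondrially encoded fragments numbered 35121 and 62765 in WT, 53217 and 48206 in Sdc1_KO, and 29200 and 37856 in Jhd2_KO, but only 2 to 17 in the libraries of Dpy30_KO, Sdc1_mut and Sdc1_mut_Jhd2_KO. The part of this difference between strains in the members' values was not tested. Against WT, this difference cannot be told apart from the genotype in Dpy30_KO, Sdc1_mut and Sdc1_mut_Jhd2_KO.

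**Figure D2:**
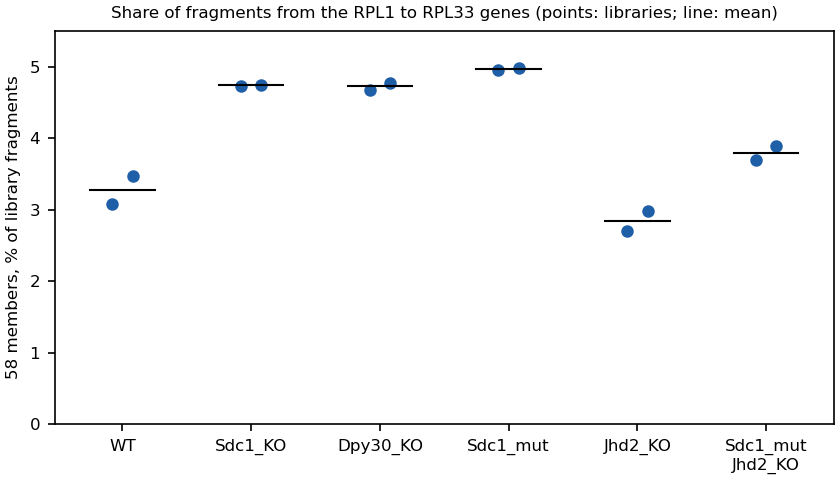
Percent of each library's fragments in the 58 members, by strain, with 1 point for each library. WT lies at 3.08% and 3.47%, the 3 SDC1 strains between 4.67% and 4.98%, and Jhd2_KO at 2.71% and 2.98%.

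Most members rose when SDC1 was deleted, lost its DPY30 motif or carried the point mutation. By edgeR's quasi-likelihood test, called at a Benjamini-Hochberg adjusted p under 0.05 over 6361 genes, 49 of 58 members were higher and 0 lower in Sdc1_KO. In Dpy30_KO 48 were higher and 1 lower, and in Sdc1_mut 51 were higher and 0 lower. Of all genes, 28% were called higher and 22.4% lower in Sdc1_KO, 27.2% and 25.1% in Dpy30_KO, and 27.9% and 24.7% in Sdc1_mut. The median log2 change of the members was 0.60, 0.57 and 0.68, against 0.04, 0.02 and 0.02 for all genes. No member was lower in Sdc1_KO or Sdc1_mut at an unadjusted p under 0.05, and DESeq2 and limma-trend also called 0 there. The 3 comparisons share the WT libraries. Leaving out each of the 12 libraries in turn, 34 of the 49, 28 of the 48 and 41 of the 51 were called higher every time. Without WT replicate 1, 30 members were called higher in Dpy30_KO.

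**Figure D3:**
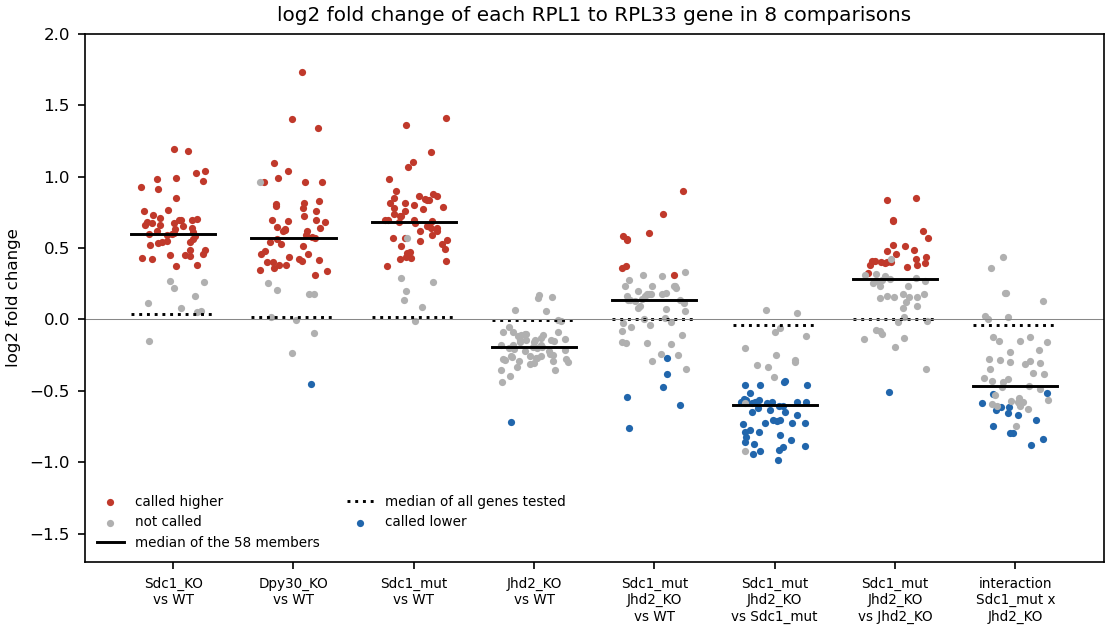
log2 fold change of the 58 members, 1 point for each gene, in 8 comparisons. The members' medians are 0.60, 0.57 and 0.68 in the 3 SDC1 strains, -0.19 in Jhd2_KO and 0.14 in Sdc1_mut_Jhd2_KO.

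RPL16B (YNL069C), a copy of the conserved protein uL13, rose most in each of these strains. It was at 315 and 389 CPM (fragments scaled to a common library size with TMM factors) in WT, 775 and 837 in Sdc1_KO, 1164 and 1176 in Dpy30_KO and 936 and 934 in Sdc1_mut. All 6 mutant libraries were above both WT libraries. The log2 change was 1.19 ± 0.14 (SE, 2 libraries a group, edgeR adjusted p = 3.62e-05), 1.73 ± 0.14 (adjusted p = 1.68e-06) and 1.41 ± 0.14 (adjusted p = 6.62e-06). RPL9B (YNL067W), a copy of uL6, was at 109.9 and 132 CPM in WT, 238 and 255 in Sdc1_KO, 303 and 309 in Dpy30_KO and 309 and 311 in Sdc1_mut. The groups did not overlap, and the log2 changes were 1.03 ± 0.11, 1.34 ± 0.11 and 1.36 ± 0.11.

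RPL14B was at 77 and 112 CPM in WT and 212 and 216 in Sdc1_KO, a log2 change of 1.18 ± 0.14, and it rose by 1.10 ± 0.14 in Dpy30_KO and 1.10 ± 0.14 in Sdc1_mut. RPL11B, whose protein binds the 5S rRNA together with Rpl5, was at 101 and 139 CPM in WT and 229 and 263 in Sdc1_KO (1.04 ± 0.14). RPL23A, a copy of a protein at the interface of the subunits, was at 124 and 168 CPM in WT and 374 and 401 in Dpy30_KO (1.41 ± 0.15). In each case both mutant libraries were above both WT libraries.

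A few members did not follow. RPL25, RPL15B and RPL18B were called in none of the 3 strains. RPL22A was not called either, but its 142 fragments are too few to place it. Its log2 changes were 0.06, 0.96 and 0.57. With its neighbour's fragments added they were 0.47, 0.66 and 0.70, all called higher. RPL7B (YPL198W), a copy of uL30, was the member called lower in Dpy30_KO, at 38.6 and 44.8 CPM against 50.3 and 63.7 in WT. The log2 change was -0.45 ± 0.14 (edgeR adjusted p = 0.016), with an adjusted p of 0.174 and a value of -0.27 without WT replicate 2, and an adjusted p of 0.135 without Dpy30_KO replicate 1. With its neighbour's fragments added the value was -0.53. Its paralog RPL7A went the other way, from 305 and 406 CPM in WT to 658 and 726 (0.96 ± 0.14).

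The 8 single genes have no paralog to share reads with. RPL5 (YPL131W), which carries the 5S rRNA into the subunit, was at 1708 and 1890.0 CPM in WT, 2464 and 2845 in Sdc1_KO, 2430.3 and 2597 in Dpy30_KO and 2509.8 and 2791 in Sdc1_mut. All 6 libraries were above WT, with log2 changes of 0.56 ± 0.13, 0.48 ± 0.13 and 0.56 ± 0.13 (edgeR adjusted p = 0.00279, 0.00635 and 0.0026). In Dpy30_KO the adjusted p was 0.0608 without WT replicate 1 and 0.0522 without Dpy30_KO replicate 2. RPL32 was at 722 and 819 CPM in WT, 1036 and 1302 in Sdc1_KO, 1559.7 and 1499 in Dpy30_KO and 1388 and 1378 in Sdc1_mut. It rose by 0.60 ± 0.13, 0.99 ± 0.13 and 0.84 ± 0.13, without overlap with WT.

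RPL29 was at 149 and 212 CPM in WT, 269 and 225 in Sdc1_KO, 269 and 315 in Dpy30_KO and 324 and 334 in Sdc1_mut. Its log2 changes were 0.45 ± 0.15, 0.69 ± 0.15 and 0.87 ± 0.15, all called. In Sdc1_KO the value was 0.22 (edgeR adjusted p = 0.244) without WT replicate 1, 0.73 without WT replicate 2, and 0.29 (adjusted p = 0.118) without Sdc1_KO replicate 1. In Dpy30_KO it was 0.46 without WT replicate 1. RPL28, the gene in which cycloheximide resistance mutations are known, was at only 6.16 and 7.79 CPM in WT and rose by 0.98 ± 0.23, 0.96 ± 0.24 and 1.17 ± 0.23. With the neighbour's fragments added these values were 0.54, 0.44 and 0.52. In Dpy30_KO the adjusted p was 0.0828 and the value 0.60 without Dpy30_KO replicate 2.

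RPL3 (YOR063W), a protein at the peptidyl transferase centre, was at 5043 and 5122 CPM in WT, 5378 and 5990.5 in Sdc1_KO, 6614 and 6830.0 in Dpy30_KO and 6935 and 7555 in Sdc1_mut. It was called in Dpy30_KO (0.40 ± 0.13) and Sdc1_mut (0.51 ± 0.13), while in Sdc1_KO the change was 0.16 ± 0.13 (edgeR adjusted p = 0.308). The Dpy30_KO call was lost without any 1 of the WT and Dpy30_KO libraries (adjusted p = 0.0579 to 0.0907), and the Sdc1_mut call without Sdc1_mut replicate 2 (adjusted p = 0.0519). RPL30, which represses splicing of its own transcript, was called in Dpy30_KO (0.42 ± 0.14) and Sdc1_mut (0.41 ± 0.14), with 0.11 ± 0.14 in Sdc1_KO. Those calls were lost without WT replicate 1 (adjusted p = 0.157 and 0.178), without Dpy30_KO replicate 1 in the first (0.115) and without either Sdc1_mut library in the other (0.0926 and 0.0949).

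RPL10 (YLR075W), which joins the subunit late and is needed for the subunits to meet, was called in Sdc1_KO (0.43 ± 0.12) and Sdc1_mut (0.42 ± 0.12), with 0.21 ± 0.12 in Dpy30_KO. Without WT replicate 1 the edgeR adjusted p of those calls was 0.12 and 0.123, and without Sdc1_mut replicate 1 or 2 that of Sdc1_mut was 0.0547 or 0.0635. RPL25 (YOL127W), at the exit of the peptide tunnel, was at 889.6 and 1063 CPM in WT, 767 and 990.4 in Sdc1_KO, 1032 and 912 in Dpy30_KO and 991 and 949 in Sdc1_mut. These groups overlapped, and the log2 change was -0.15 ± 0.14, -0.01 ± 0.14 and -0.01 ± 0.14.

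With the copies of each pair summed, 29, 30 and 31 of the 33 families were higher in Sdc1_KO, Dpy30_KO and Sdc1_mut and 0 were lower. Of all genes without summing, 28%, 27.2% and 27.9% were called higher. Both copies were called higher in 20, 18 and 20 of 25 pairs. The 37 members with an intron had median log2 changes of 0.63, 0.59 and 0.68, and the 21 without had 0.53, 0.48 and 0.59. The 10 members with a match to the first Rap1 pattern had 0.65, 0.55 and 0.66, and the other 48 had 0.60, 0.59 and 0.68.

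In Jhd2_KO the members lay slightly below WT, and almost none passed the test. The median log2 change was -0.19, and 53 of 58 values were below 0. By edgeR 0 members were called higher and 1 lower, next to 0.755% and 0.88% of all genes. At an unadjusted p under 0.05, 0 were higher and 11 lower, DESeq2 called 0 and 3, and limma-trend 0 and 1. The member called was RPL25, at 610.3 and 577 CPM against 889.6 and 1063 in WT, without overlap. Its log2 change was -0.72 ± 0.14 (edgeR adjusted p = 0.0266). The call was lost without any 1 library of WT, Jhd2_KO, Sdc1_mut or Sdc1_mut_Jhd2_KO (adjusted p = 0.0557 to 0.218). Without Sdc1_KO replicate 1 or 2, 11 or 9 members were called lower.

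In the strain with both the point mutation and the JHD2 deletion most members were near WT, and some copies of a pair moved in opposite directions. Against WT 9 members were higher and 6 lower, next to 29.1% and 30.1% of all genes, and the median log2 change was 0.14. RPL9B was at 208 and 243 CPM (0.90 ± 0.11) and RPL16B at 571 and 605 CPM (0.74 ± 0.14), both above WT in each library. RPL13B (0.60 ± 0.13), RPL15A (0.56 ± 0.11) and RPL3 (0.55 ± 0.13) also rose. The falls were RPL18B (-0.76 ± 0.18), RPL16A (-0.60 ± 0.16), RPL27B (-0.54 ± 0.15), RPL33B (-0.47 ± 0.13), RPL9A (-0.38 ± 0.15) and RPL11A (-0.27 ± 0.11). RPL18B was at 75.8 and 91.1 CPM against 127 and 155 in WT, and RPL16A at 371 and 421 against 548 and 651, without overlap.

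Of the 6 falls, only RPL18B was called whichever of the 12 libraries was left out, and of the 9 rises, 5 were. Without WT replicate 2, RPL33B was at -0.31, RPL9A at -0.24 and RPL11A at -0.14. The count of falls was 1 without WT replicate 2 and 2 without Sdc1_mut_Jhd2_KO replicate 1. The count of rises was 5 without WT replicate 1 or Sdc1_mut_Jhd2_KO replicate 1, 14 without WT replicate 2, and 16 without either Sdc1_KO library.

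Most members were lower in the combined strain than in the point mutant. Against Sdc1_mut 44 of 58 were lower and 0 higher, next to 19.4% and 13.2% of all genes, and the median log2 change was -0.60. By edgeR at an unadjusted p under 0.05, DESeq2 and limma-trend, 0 were higher. Without Sdc1_mut_Jhd2_KO replicate 1 the count of lower members was 27. RPL12A (YEL054C), a copy of a protein at the base of the ribosomal stalk, was at 278 and 282 CPM in Sdc1_mut and 137 and 146 in the combined strain, with 153 and 182 in WT. It fell most (-0.99 ± 0.13), followed by RPL33B (-0.94 ± 0.13) and RPL27B (-0.92 ± 0.15). RPL3, at 7539.6 and 7389 CPM, differed from Sdc1_mut by 0.04 ± 0.13 (edgeR adjusted p = 0.825).

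Against Jhd2_KO, 24 members were higher and 1 lower in the combined strain, next to 28.6% and 29.8% of all genes, with a median of 0.29. RPL15A (0.85 ± 0.11), RPL9B (0.84 ± 0.11) and RPL3 (0.69 ± 0.13) rose most. RPL18B fell (-0.51 ± 0.19, edgeR adjusted p = 0.0332), a call lost without Jhd2_KO replicate 1 or 2 (0.0711 and 0.144) or Sdc1_mut_Jhd2_KO replicate 1 (0.202). The count of rises was 6 without Jhd2_KO replicate 1, 8 without Sdc1_mut_Jhd2_KO replicate 2 and 38 without Sdc1_KO replicate 1. The interaction tests whether the effect of the point mutation depends on JHD2. Both strains with the point mutation held 2 to 16 mitochondrially encoded fragments in a library, and WT and Jhd2_KO 29200 to 62765. In this test, and in the comparison of the combined strain against Jhd2_KO, the point mutation and that difference cannot be told apart. The interaction was below 0 and called in 14 members and above 0 and called in 0, next to 12% and 8.39% of all genes, with a median of -0.47. At an unadjusted p under 0.05 there were 31 and 2, DESeq2 called 17 and 1, and limma-trend 18 and 0. Only RPL12A (-0.88 ± 0.18, edgeR adjusted p = 0.00668) was called whichever library was left out. The count of 14 was 1 or 2 without WT replicate 1, Sdc1_mut replicate 2, Jhd2_KO replicate 2 or Sdc1_mut_Jhd2_KO replicate 1, and 4, 8 and 9 without Sdc1_mut replicate 1, Sdc1_mut_Jhd2_KO replicate 2 and Dpy30_KO replicate 2. It was 26, 28 and 32 without WT replicate 2, Sdc1_KO replicate 1 and Sdc1_KO replicate 2.

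The A to B ratio was tested over 66 pairs of paralogs, with both copies taken from the same library so that scaling cancels. Of the 25 pairs described here, 11 changed in Sdc1_KO, 15 in Dpy30_KO, 11 in Sdc1_mut, 6 in Jhd2_KO and 16 in Sdc1_mut_Jhd2_KO. Of all 66 pairs, 43.9%, 54.5%, 48.5%, 13.6% and 50% changed, and among the 41 pairs that are not described here 18, 21, 21, 3 and 17 did. In the 3 SDC1 strains the counts were near that background. Copy A gained in 7, 8, 6, 2 and 7 pairs and copy B in 4, 7, 5, 4 and 9. Against Sdc1_mut 9 pairs changed (33.3% of all), against Jhd2_KO 18 (47.0%), and in the interaction 7 (19.7%). The interaction count was 0 without Sdc1_mut replicate 2, and 1 to 4 without WT replicate 1, Sdc1_mut replicate 1, or any 1 library of Dpy30_KO, Jhd2_KO or Sdc1_mut_Jhd2_KO. The count was 7 in Sdc1_KO without WT replicate 1, 7 in Sdc1_mut without Sdc1_mut replicate 2, and 5 against Sdc1_mut without that library. In Jhd2_KO it was 0 without WT replicate 1 or Jhd2_KO replicate 2, and 2 without Jhd2_KO replicate 1 or any 1 library of Dpy30_KO, Sdc1_mut or Sdc1_mut_Jhd2_KO.

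**Figure D4:**
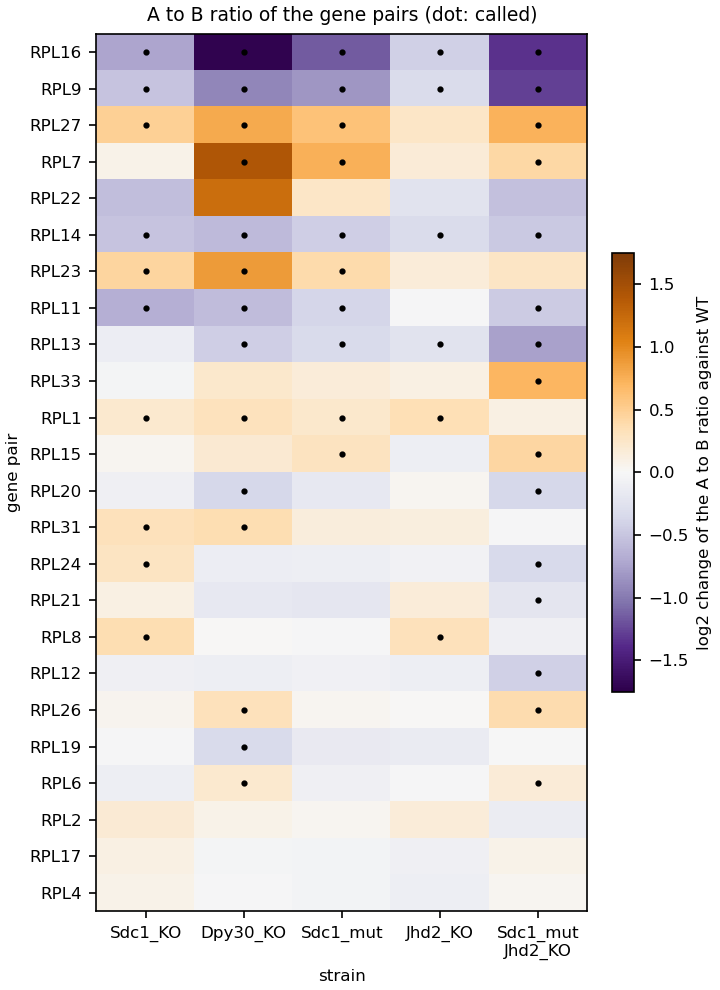
log2 change against WT of the A to B ratio of the pairs shown in 5 strains, where negative values mean that copy B gained. RPL16 has the largest change, -1.72 in Dpy30_KO, and RPL2, RPL17 and RPL4 are called in none of the strains.

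RPL16 had the largest mean change, and in some strains the major copy switched from A to B. RPL16A made up 66.04% and 64.3% of the pair's FPKM in WT, 48.8% and 56.6% in Sdc1_KO, 35.9% and 35.3% in Dpy30_KO and 45.6% and 45.1% in Sdc1_mut. It made up 59.98% and 55.95% in Jhd2_KO and 41.3% and 42.6% in Sdc1_mut_Jhd2_KO. Both WT libraries were above every other library. The log2 change of the ratio was -0.73 ± 0.12, -1.72 ± 0.12, -1.15 ± 0.12, -0.42 ± 0.12 and -1.34 ± 0.12 (edgeR adjusted p = 0.000726, 5.84e-07, 2.01e-05, 0.0463 and 2.7e-06). In Dpy30_KO, RPL16A was at 612 and 601 CPM, between the WT values of 548 and 651, and changed by 0.02 ± 0.16 (adjusted p = 0.937), while RPL16B rose. The RPL16 proteins are 199 and 198 residues long and 89.9% identical, and no stretch of 50 coding bases of either occurs elsewhere.

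RPL9 shifted toward copy B too, but copy A stayed the major one. RPL9A made up 80.2% and 80.6% of the pair's FPKM in WT, 71.6% and 75.96% in Sdc1_KO, 68.5% and 67.8% in Dpy30_KO and 69.02% and 69.95% in Sdc1_mut. It made up 76.1% and 77.4% in Jhd2_KO and 63.4% and 63.00% in Sdc1_mut_Jhd2_KO. Both WT libraries were again above every other library. The log2 change of the ratio was -0.51 ± 0.09, -0.92 ± 0.09, -0.83 ± 0.09, -0.32 ± 0.09 and -1.28 ± 0.09. RPL14 shifted toward copy B by -0.51 ± 0.09, -0.58 ± 0.09, -0.43 ± 0.09, -0.33 ± 0.09 and -0.47 ± 0.09.

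The calls of RPL16, RPL9 and RPL14 in Jhd2_KO, with an edgeR adjusted p of 0.0463 each, were lost when most single libraries were left out. Leaving out 1 library of another strain than Sdc1_KO gave an adjusted p of 0.063 to 0.332 for RPL16 and of 0.063 to 0.26 for RPL9. For RPL14 it gave 0.063 to 0.283, except that the call held without WT replicate 2.

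RPL27 and RPL7 shifted toward copy A. RPL27A made up 61.6% and 63.98% of the pair's FPKM in WT, 72.8% and 68.2% in Sdc1_KO, 74.8% and 73.9% in Dpy30_KO, 72.8% and 71.8% in Sdc1_mut and 74.9% and 72.7% in Sdc1_mut_Jhd2_KO. Its ratio changed by 0.48 ± 0.10, 0.79 ± 0.10, 0.61 ± 0.10 and 0.73 ± 0.10 there, and by 0.26 ± 0.10 in Jhd2_KO, which was not called. In Sdc1_KO it was 0.31 without Sdc1_KO replicate 1.

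For RPL7, the ratio change was called in Dpy30_KO, Sdc1_mut and Sdc1_mut_Jhd2_KO. RPL7A made up 85.8% and 86.1% of the pair's FPKM in WT, 86.3% and 86.5% in Sdc1_KO, 94.4% and 94.1% in Dpy30_KO and 91.4% and 90.9% in Sdc1_mut. It made up 86.1% and 88.2% in Jhd2_KO and 89.8% and 88.5% in Sdc1_mut_Jhd2_KO. The Sdc1_KO libraries lay just above WT and those of Dpy30_KO highest. The log2 change of the ratio was 0.07 ± 0.09 (edgeR adjusted p = 0.546), 1.42 ± 0.10 (adjusted p = 5.84e-07) and 0.75 ± 0.09 (adjusted p = 6.19e-05) in the 3 SDC1 strains, 0.17 ± 0.10 (adjusted p = 0.283) in Jhd2_KO and 0.42 ± 0.09 (adjusted p = 0.00249) in Sdc1_mut_Jhd2_KO. The difference between Sdc1_KO and the other SDC1 strains was not tested. The strains with a called change are those with 2 to 17 mitochondrially encoded fragments in a library, and the part of that in the ratio was not tested. RPL7A and RPL7B share many stretches of 50 bases, and RPL7B has a neighbour, so this ratio is uncertain. Another gene also lies inside each copy, SNR39 in RPL7A and SNR59 in RPL7B. Their part in the fragments was not tested. RPL2, RPL17 and RPL4 had the smallest ratio changes, between -0.13 and 0.19 over the 5 strains, and were called in none. Of the stretches of 50 coding bases, 72.7% in RPL4 and 28.4% in RPL2 also occur elsewhere, so these 2 ratios are uncertain. In RPL17 the share is 0%.

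**Figure D5:**
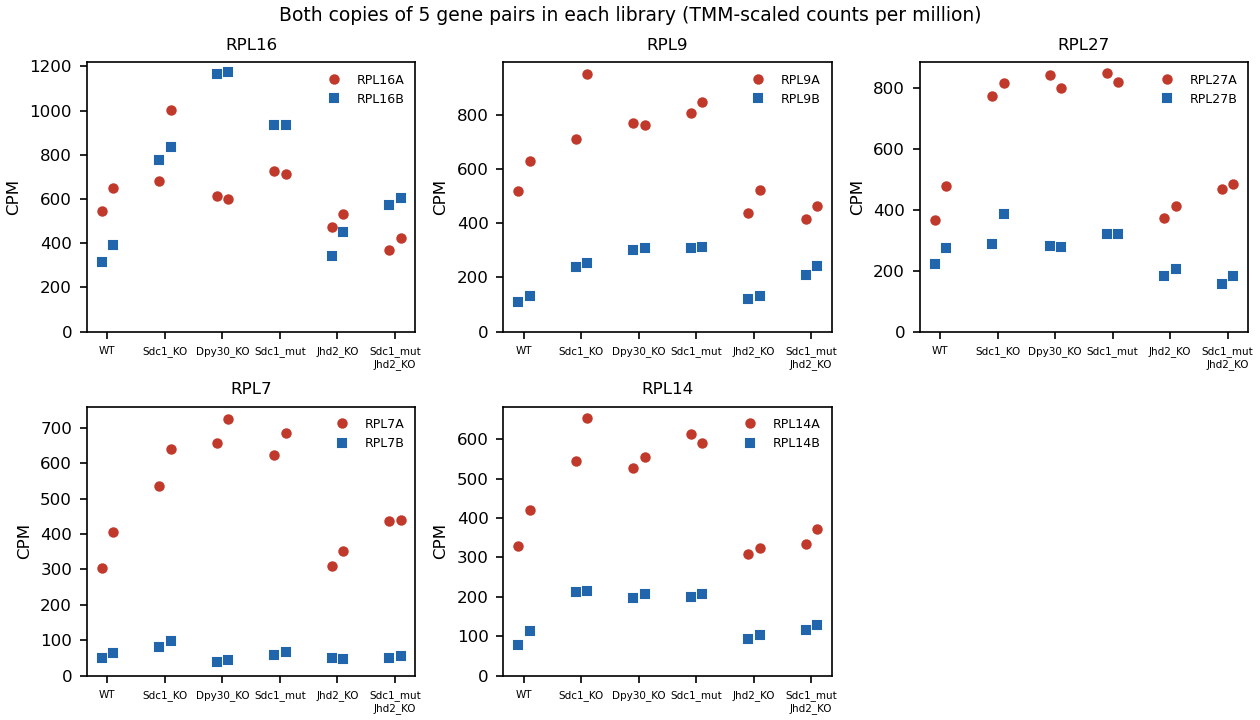
TMM-scaled CPM of copies A and B of 5 pairs in every library, by strain. RPL16B goes from 315 and 389 in WT to 1164 and 1176 in Dpy30_KO, while RPL16A is at 548 and 651 and 612 and 601.

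Most chaperones of single members were higher in the 3 SDC1 strains. All 5 listed chaperones were called higher in Sdc1_KO and Sdc1_mut and 4 in Dpy30_KO, 0 were higher and 1 lower in Jhd2_KO, and 2 were higher in Sdc1_mut_Jhd2_KO. Of all genes, 27.2% to 28% were called higher in the 3 SDC1 strains and 29.1% in Sdc1_mut_Jhd2_KO. In Jhd2_KO 0.755% were called higher and 0.88% lower. The 2 of 5 in Sdc1_mut_Jhd2_KO are near that share. SQT1, the chaperone of Rpl10, was at 38.6 and 53.3 CPM in WT, 137 and 118 in Sdc1_KO, 138 and 136 in Dpy30_KO and 132 and 138 in Sdc1_mut. It rose by 1.47 ± 0.14, 1.58 ± 0.14 and 1.56 ± 0.14, and by 1.38 ± 0.14 in Sdc1_mut_Jhd2_KO, where RPL10 was at -0.02 ± 0.12. SYO1, of Rpl5 and Rpl11, rose by 1.25 ± 0.22, 1.11 ± 0.23 and 1.48 ± 0.23, RRB1, of Rpl3, by 1.05 ± 0.14, 0.87 ± 0.14 and 1.15 ± 0.14, and ACL4, of Rpl4, by 0.73 ± 0.14, 0.56 ± 0.14 and 0.76 ± 0.14. RPL3 in Sdc1_KO (0.16 ± 0.13) and RPL10 in Dpy30_KO (0.21 ± 0.12) were not called, and neither was BCP1, the chaperone of Rpl23, in Dpy30_KO (-0.05 ± 0.14). The ACL4 value in Sdc1_KO was 0.44 without Sdc1_KO replicate 2. In Sdc1_mut_Jhd2_KO, SYO1 was at 0.87 ± 0.23, a call lost without WT replicate 1 (edgeR adjusted p = 0.0564).

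The listed regulators were called in both directions. Of 10, 4 were higher and 4 lower in Sdc1_KO, 4 and 3 in Dpy30_KO, 3 and 3 in Sdc1_mut, 0 and 1 in Jhd2_KO, and 6 and 1 in Sdc1_mut_Jhd2_KO. Of all genes, 27.2% to 28% were higher and 22.4% to 25.1% lower in the 3 SDC1 strains. The shares were 0.755% and 0.88% in Jhd2_KO, and 29.1% and 30.1% in Sdc1_mut_Jhd2_KO. With only 10 regulators, the counts in Dpy30_KO and Sdc1_mut and the rises in Sdc1_KO are near that background. IFH1, the coactivator of these genes, rose by 0.55 ± 0.13, 0.98 ± 0.13 and 1.07 ± 0.13, and by 1.52 ± 0.13 in Sdc1_mut_Jhd2_KO, where most members were near WT. TOD6, a repressor that binds PAC letters, rose by 1.43 ± 0.19, 1.57 ± 0.19, 1.78 ± 0.19 and, in Sdc1_mut_Jhd2_KO, 1.83 ± 0.19. In Jhd2_KO it changed by -1.32 ± 0.25, a call lost without any 1 library of WT or Jhd2_KO (edgeR adjusted p = 0.067 to 0.24). DOT6, its paralog, changed by -1.26 ± 0.15, -0.52 ± 0.15 and -0.64 ± 0.15 in the 3 SDC1 strains, and STB3, another repressor, by -0.71 ± 0.11, -0.42 ± 0.11 and -0.54 ± 0.11. The DOT6 call in Dpy30_KO was lost without WT replicate 1 (adjusted p = 0.0998) or Dpy30_KO replicate 2 (0.0847).

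Of the 23 other genes of the large subunit 20 were tested. In Sdc1_KO, Dpy30_KO and Sdc1_mut 14, 17 and 17 of them were called higher by edgeR and 0 lower, with median log2 changes of 0.50, 0.53 and 0.69. Of all genes, 28%, 27.2% and 27.9% were called higher there.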

How the data were processed

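Per the labels, RNA of 12 libraries was depleted of ribosomal RNA and made into directional libraries. Per the submitters' processing notes, bcl2fastq 2.17.1.14, TopHat, Cufflinks and sacCer3 were used. The deposited table holds expected counts of fragments, not normalized, and FPKM, which the authors scaled by length and library. Of the deposited counts 97.8% were whole numbers; 183 identifiers, 0 of them members, had fractional counts, and counts were rounded. The 14 identifiers marked HIDATA were left out.

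edgeR 4.0.16 in R 4.3.3 was fitted to all 12 libraries with 6 groups, TMM scaling and filterByExpr (6361 of 7112 identifiers), with p-values adjusted over all genes. The SE is the log2 change divided by the square root of F. It rests on a spread estimated over all 6 groups together. Over all genes, the standard deviation of log2 differences between replicates was 0.42 in Sdc1_KO and 0.24 to 0.28 in the other strains. Over the members it was 0.19 in Sdc1_KO and 0.14 to 0.23 in the others. A to B ratios were fitted over the 66 of 91 pairs with enough fragments, with each library as a block. The code was tested on simulated data. Alternatives were RLE scaling, DESeq2 1.42.0, limma 3.58.1, no filter, summed copies, a replicate block and leaving out each library. Adding neighbouring identifiers, their minimum of 10% of the member's fragments and the upstream region printed were chosen after seeing the data. Floors of 3 fragments cover counting error only.

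The members and lists were chosen with earlier results of these data known. Named were the 3 largest called rises and falls against WT, members called against the majority, the 8 single genes, the 6 pairs with the largest mean ratio change among those called and the 3 with the smallest, the highest and lowest FPKM, and up to 4 regulators and chaperones; others named were chosen after their values were seen. RPL22 was called in no strain and so was not among the 6 pairs. One of those pairs is not reported here. Sequences were read with Biopython 1.88 from RefSeq's R64 genome, to which 6046 identifiers were matched by locus tag; the deposited table gives no coordinates to compare.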

Additional observations from a re-analysis of the deposited data

Results flagged for a closer look

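The effect of the point mutation differed with and without JHD2 in 14 of 58 members by edgeR's interaction test. All 14 values were below 0, next to 12% of all genes called below 0 and 8.39% called above. In this test the point mutation cannot be told apart from the near absence of mitochondrially encoded fragments in both strains that carry it. The log2 difference of the effects was -0.88 in RPL12A, -0.84 in RPL16B, -0.80 in RPL8A, -0.80 in RPL14B, -0.74 in RPL21A, -0.70 in RPL27A and -0.67 in RPL26B. It was -0.66 in RPL9A, -0.63 in RPL12B, -0.62 in RPL1A, -0.61 in RPL32, -0.58 in RPL21B, -0.52 in RPL9B and -0.51 in RPL11A. Only RPL12A was called whichever of the 12 libraries was left out.

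The A to B ratio also had a called interaction in 7 of 25 pairs, next to 19.7% of all 66 pairs. The values were -0.49 in RPL7, -0.47 in RPL1, -0.38 in RPL8, -0.32 in RPL2, 0.28 in RPL6, 0.29 in RPL19 and 0.32 in RPL26. limma on the log2 ratio called 1 pair, the fit without the filter 3 and the replicate block 4, and leaving out 1 library gave 0 to 8.

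Fragments also appear in identifiers next to 7 members, which are not counted among the members. These are 7431 in YPL197C (RPL7B), 140425 in YLL044W (RPL8B), 57684 in YEL053W-A (RPL12A), 76928 in YLR062C (RPL22A), 84022 in YPL142C (RPL33A), 324117 in YLR076C (RPL10) and 210485 in YGL102C (RPL28).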

How the results depend on the processing

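The members called higher in the 3 SDC1 strains stayed within 1.5 times the count under RLE scaling, DESeq2, limma-trend, no filter, the replicate block, summed copies and added neighbours. Other counts moved more. DESeq2 called 3 members lower in Jhd2_KO and 1 higher in the interaction. With summed copies 0 were lower in Dpy30_KO, 2 in Sdc1_mut_Jhd2_KO against WT and 0 against Jhd2_KO. Over all genes tested, deviations of same-numbered replicates correlated at -0.13 to 0.16 over 15 pairs of groups, and 4 were above 0.1. With TMM scaling, the members' mean log2 difference of replicate 1 minus replicate 2 was below 0 in every strain, from -0.28 to -0.02. The value in Sdc1_KO, -0.24, depends on that scaling. A correlation over all genes cannot decide whether the replicate numbers pair the libraries for the members. The replicate block gave 2 changed pairs in Jhd2_KO, 2 members lower against Jhd2_KO, 25 lower in the interaction and 4 changed pairs there. limma on the log2 ratio called 1 pair in Jhd2_KO and 1 in the interaction, and without the filter 3 pairs were called in the interaction. With 1 library left out, Sdc1_KO vs WT gave 34 to 51 members higher, 0 to 1 lower and 7 to 12 changed pairs. Dpy30_KO vs WT gave 30 to 49 members higher, 0 to 1 lower and 14 to 16 changed pairs. Sdc1_mut vs WT gave 42 to 53 members higher, 0 lower and 7 to 14 changed pairs. Jhd2_KO vs WT gave 0 members higher, 0 to 11 lower and 0 to 7 changed pairs. Sdc1_mut_Jhd2_KO vs WT gave 5 to 16 members higher, 1 to 8 lower and 14 to 17 changed pairs. Sdc1_mut_Jhd2_KO vs Sdc1_mut gave 0 members higher, 27 to 49 lower and 5 to 9 changed pairs. Sdc1_mut_Jhd2_KO vs Jhd2_KO gave 6 to 38 members higher, 0 to 2 lower and 15 to 18 changed pairs. The interaction of Sdc1_mut and Jhd2_KO gave 0 to 2 members higher, 1 to 32 lower and 0 to 8 changed pairs. With summed copies, where both copies take the value of the pair, the sign changed in Dpy30_KO vs WT for RPL7B 0.836. It changed in Jhd2_KO vs WT for RPL9B -0.198, RPL14B -0.177, RPL16B -0.0852. It changed in Sdc1_mut_Jhd2_KO vs WT for RPL7B 0.258, RPL9B -0.0598, RPL14A 0.0253, RPL16A 0.0516, RPL27A -0.0454. It changed in Sdc1_mut_Jhd2_KO vs Jhd2_KO for RPL9A 0.138, RPL16A 0.137, RPL27B 0.147. With the neighbour added, the sign changed in Jhd2_KO vs WT for RPL28 -0.155. It changed in Sdc1_mut_Jhd2_KO vs WT for RPL28 -0.0788. With 1 library left out, the values that crossed 0 ranged as follows. In Sdc1_KO vs WT they were RPL18B -0.153 to 0.49, RPL30 -0.107 to 0.28. In Dpy30_KO vs WT they were RPL16A -0.104 to 0.147, RPL18B -0.228 to 0.0556, RPL25 -0.13 to 0.128, the RPL2 ratio -0.0031 to 0.158. In Sdc1_mut vs WT they were RPL7B -0.0227 to 0.319, RPL18B -0.0474 to 0.235, RPL25 -0.133 to 0.124, the RPL2 ratio -0.0402 to 0.12. In Jhd2_KO vs WT they were RPL7A -0.297 to 0.115, RPL9B -0.0637 to 0.198, RPL14B -0.179 to 0.366, RPL16B -0.0559 to 0.355, RPL27A -0.281 to 0.102, RPL28 -0.0718 to 0.383, RPL29 -0.365 to 0.148, IFH1 -0.0256 to 0.0812. In Sdc1_mut_Jhd2_KO vs WT they were RPL7B -0.275 to 0.0671, RPL14A -0.252 to 0.103, RPL27A -0.0027 to 0.38, RPL10 -0.133 to 0.108, RPL29 -0.0738 to 0.44, RPL32 -0.0314 to 0.15, the RPL17 ratio -0.0505 to 0.196. In Sdc1_mut_Jhd2_KO vs Sdc1_mut they were RPL3 -0.0189 to 0.104, the RPL14 ratio -0.105 to 0.0112, the RPL17 ratio -0.0046 to 0.242. In Sdc1_mut_Jhd2_KO vs Jhd2_KO they were RPL9A -0.25 to 0.0028. Over 3288 single values with 1 library left out, 2902 kept direction and call, 279 lost the call, 65 gained it and 42 changed sign. The cause of these changes was not tested.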
